A study of Mus musculus with 16 samples.

Results

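Tumor RNA from 4 mice treated with SB525334 and KN046 (the combination) was compared with that from 4 mice treated with KN046 alone, 8 of the 16 mice in the series. The mice were chosen by the treatment in their labels, and the remaining 8 mice entered the comparison only in an alternative fit. All mice were wild-type male C57BL/6, aged 6 weeks when MC38 cells, a mouse colon adenocarcinoma line, were injected into the lower part of the spleen, from which the cells seed the liver. KN046, a bispecific antibody against PD-L1 and CTLA-4, was given to both groups at 10 mg/kg by 2 intraperitoneal injections a week, and the combination group also received SB525334, an inhibitor of the kinase of the type I TGF-β receptor, at 20 mg/kg each day by mouth. The tissue of all 8 mice is labelled liver metastases, and the comparison asks what the receptor inhibitor added to the antibody. The model has male mice of 1 strain and 1 tumor line, a bulk sample mixes tumor with host tissue, and the time of harvest is not given in the labels. The labels number the mice within a group without saying that each library came from a separate animal, so that the p-values measure the spread between these samples.

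TGF-β binds a pair of serine/threonine kinase receptors that phosphorylate SMAD proteins, and in tumors it is known for driving fibroblasts to lay down matrix and for restraining T cells. PD-L1 and CTLA-4 hold T cells back, the former by engaging PD-1 and the latter by competing with CD28 for its ligands. Activated CD8+ T cells kill through perforin and granzymes and release interferon-γ, to which neighboring cells respond with antigen presentation genes and chemokines such as CXCL9. In bulk RNA, fewer cells of a type and less RNA per cell cannot be told apart.

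The labelled tissue was checked against markers first, because the groups differed there. Alb (ENSMUSG00000029368, chromosome 5, 90608647 to 90624696 of GRCm39), which encodes albumin and marks hepatocytes, had 5694, 8483, 10992 and 7932 counts in every 1000000 of its library (CPM, scaled by edgeR's TMM method) in KN046 mice 1 to 4 and 9.16, 9.90, 11.4 and 6.98 CPM in combination mice 1 to 4. Cps1, the first enzyme of the urea cycle, had 158, 331, 358 and 279 CPM with KN046 and 0.302, 0.270, 0.108 and 0.233 with the combination. Hnf4a (ENSMUSG00000017950, chromosome 2, 163348728 to 163414830), a transcription factor that maintains the hepatocyte program, had 29.0, 90.3, 81.7 and 54.1 CPM with KN046 and only 2 counts in all 4 combination mice. The defining genes of hepatocytes were thus high in every KN046 mouse, and in every combination mouse Cps1 and Hnf4a were at or near 0 and Alb was far lower. Part of the genes of splenic mesenchyme went the other way. Of 11 tested, 5 were called higher with the combination (edgeR adjusted p under 0.05), 1 was lower and 5 were not called. Nkx2-5, a transcription factor among those called higher, had 0 counts in all 4 KN046 mice and 0.554, 0.595, 0.700 and 1.44 CPM in the combination mice. The label liver metastases thus went with almost no hepatocyte RNA in the combination group, and because this split coincides with the treatment in all 8 mice, the treatment and the tissue that surrounded the tumor cannot be told apart in any result given here.

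**Figure D1:**
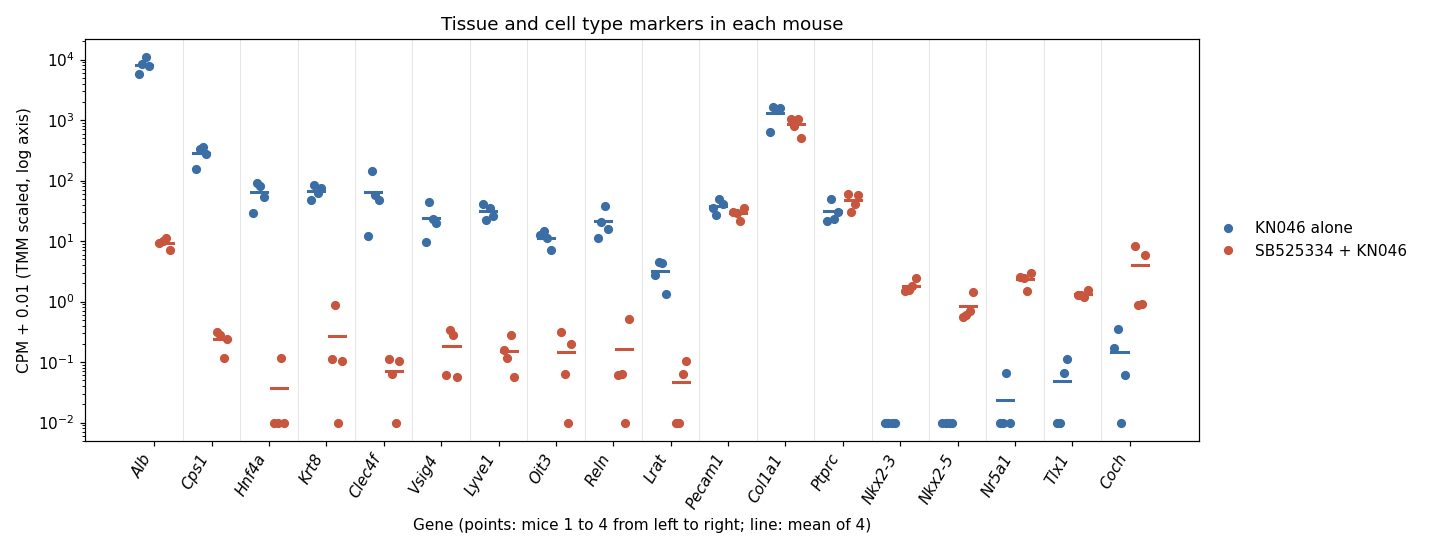
CPM plus 0.01 (log axis) of 18 marker genes in the 4 KN046 mice (blue) and the 4 combination mice (red), with points for mice 1 to 4 from left to right and a line at the mean. The hepatocyte, Kupffer cell, sinusoidal and stellate markers on the left are higher in all KN046 mice, and Pecam1, Col1a1 and Ptprc overlap. The splenic mesenchyme genes on the right are higher in all combination mice, though at low levels. They are the 5 called higher among 11 tested in their list, and of those 11 another 1 was lower and 5 were not called.

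Total counts per mouse were 18368994 to 20921926. Genes of the hepatocyte lists took 2.03% to 4.60% of the counts in the KN046 mice and 0.279% to 0.299% in the combination mice. The first principal component held 79.1% of the variance and separated the groups. Mice of a group differed by more than sampling noise in all pairs, with a median chi-square per gene of 2.82 to 18.7, and each mouse was counted as 1 sample. The biological coefficient of variation was 22.5%.

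Of 13421 genes tested with edgeR's quasi-likelihood test, 507 (3.78%) were called higher under the combination and 1345 (10.0%) lower, relative to KN046, at an adjusted p under 0.05. The falls were the larger changes. Among the called genes, by their fitted values, 743 fell by over 4-fold and 429 by over 32-fold, whereas 44 rose by over 4-fold and 3 by over 32-fold. Genes called lower had a median log2 fold change (log2FC, the combination over KN046) of -2.34 and those called higher of 0.73, against -0.00234 for all genes tested. In 435 of the genes called higher and 1235 of those called lower, the 4 combination mice did not overlap the 4 KN046 mice, and without regard to the test this held for 999 genes (7.44%) upward and 1666 (12.4%) downward. Such a gene has an exact two-sided permutation p of 0.0286, the smallest that 4 mice against 4 allow. The count of higher genes depended on single mice more than that of lower genes. It fell to 184 without combination mouse 4, 228 without combination mouse 3, 293 without KN046 mouse 3, 294 without combination mouse 2 and 321 without KN046 mouse 1, and rose to 914 without KN046 mouse 2 and 976 without combination mouse 1, while the count of lower genes stayed between 1025 and 1824.

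**Figure D2:**
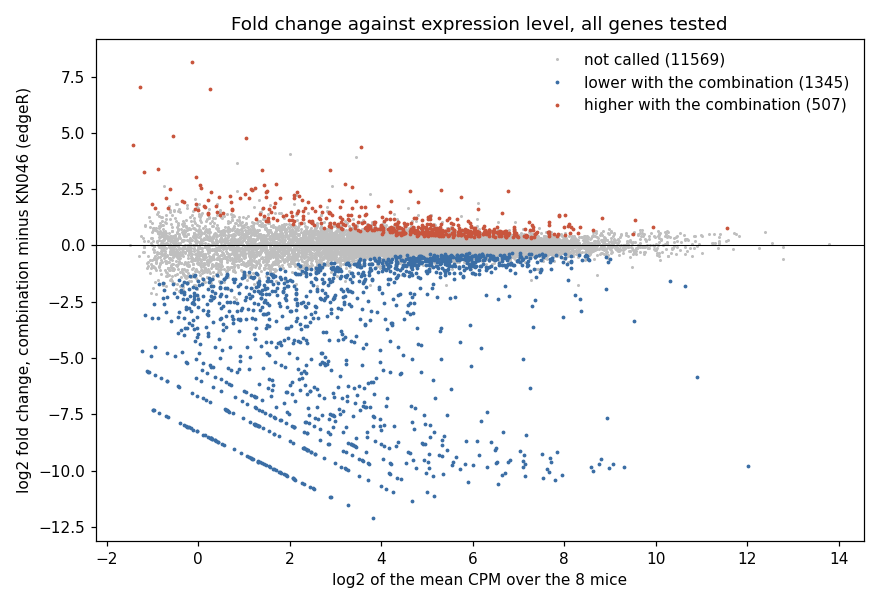
The log2 fold change of the combination over KN046 (edgeR) against the log2 of the mean CPM over the 8 mice, for 13421 genes, with 507 genes called higher in red and 1345 called lower in blue. The falls reach below -10 on the log2 scale, and the diagonal rows at low levels are genes with no or few counts in the combination mice.

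The 10 largest falls among called genes with at least 1 CPM in the higher group and no overlap were Elovl2, Ugt2b5, Kng2, Aadac, F13b, C4bp, Hnf4a, Bhmt1b, Ttpa and Slco1a4. Elovl2, which elongates polyunsaturated fatty acids, had 22.0, 45.4, 25.5 and 20.7 CPM in the KN046 mice and 0 counts in the 4 combination mice, and was at least 752-fold lower against a floor of 3 counts over the group. Ugt2b5, Aadac, F13b and Slco1a4, which encode a glucuronosyltransferase, a microsomal esterase, a chain of coagulation factor XIII and an organic anion transporter, also had 0 counts with the combination and were at least 507-fold lower, at least 393-fold lower, at least 384-fold lower and at least 299.9-fold lower. Kng2, which encodes a kininogen, and C4bp, an inhibitor of complement, had 1 and 2 counts in the combination group, and KN046 over the combination gave a ratio of 4017 (95% counting interval 721 to 158720.0) for the former and a ratio of 2766 (95% counting interval 765 to 22842) for the latter. Ttpa, which loads vitamin E onto lipoproteins in the liver, fell from 23.3 to 47.5 CPM to 1 count in all 4 mice. Most of the 10 are known from liver parenchyma.

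The 10 largest rises by the same rule were Nkx2-3, Nr5a1, Tlx1, Coch, Jchain, Lrrn1, Nts, Cdh15, Bcl11b and Gzmb. Nts, the precursor of the peptide neurotensin, had 0.317, 0.916, 2.78 and 1.18 CPM with KN046 and 15.3, 16.6, 12.1 and 9.73 with the combination, a log2FC of 3.37 ± 0.48 (SE, adjusted p = 0.000414) that ranged from 3.07 without KN046 mouse 1 to 4.05 without KN046 mouse 3. Cdh15, which encodes M-cadherin, had 0.581, 0.434, 0.389 and 0.463 and 3.27, 4.71, 3.83 and 7.26 CPM, a log2FC of 3.34 ± 0.37 (SE, adjusted p = 4.43e-05). Every combination mouse lay above every KN046 mouse in both genes. Bcl11b, a transcription factor required for T cell identity, rose from 0.205 ± 0.0998 to 1.72 ± 0.800 CPM (SD, n = 4 each). Lrrn1, a leucine-rich repeat membrane protein, rose from 0.0852 ± 0.138 to 1.0 ± 0.328 CPM. The remaining rises are described with their groups.

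**Figure D3:**
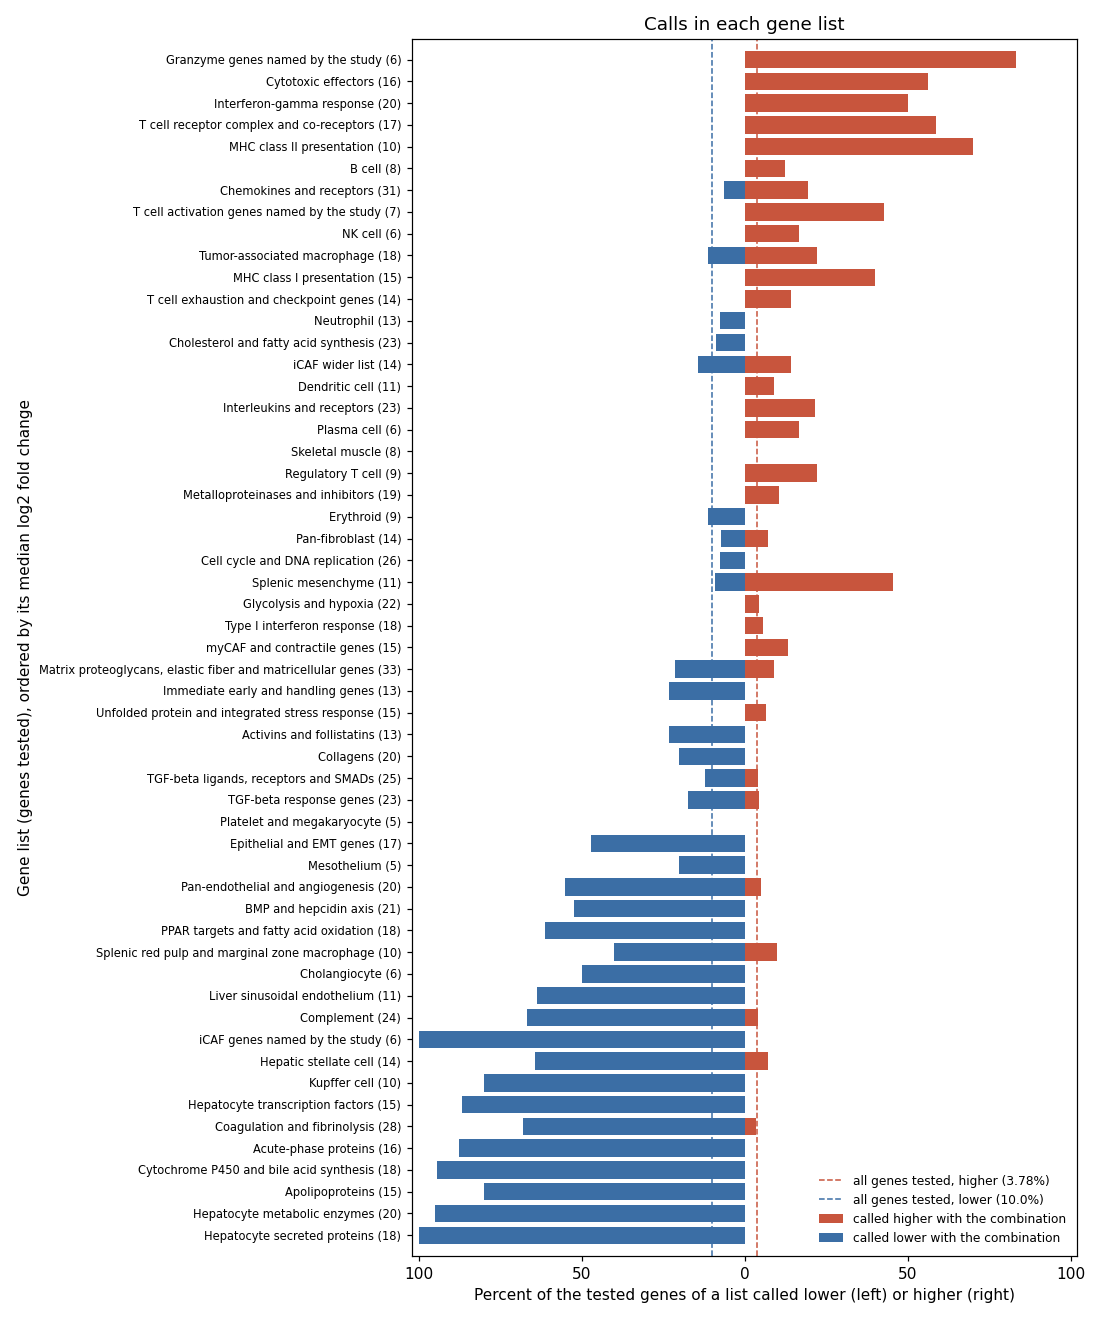
Share of the tested genes of each list (lists with 5 or more tested genes, number in parentheses) called lower (blue, left) or higher (red, right) with the combination at an edgeR adjusted p under 0.05, ordered by the list's median log2 fold change. Dashed lines give the shares of all genes tested, 3.78% higher and 10.0% lower. The hepatocyte, coagulation and Kupffer cell lists lie at the bottom and the granzyme, cytotoxic, interferon-γ, T cell receptor and MHC class II lists at the top.

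Hepatocyte genes were lower with the combination in nearly every case tested, where 10.0% of all genes tested were. All 18 of the 18 secreted protein genes tested were called lower, with a median log2 fold change of -9.62, and their summed level was 11507 to 24948 CPM in the KN046 mice and 73.9 to 95.6 CPM in the combination mice. Alb had a log2FC of -9.79 ± 0.33 (SE, adjusted p = 6.9e-09). Fga, which encodes the alpha chain of fibrinogen, had 328, 1537, 1172 and 964 CPM with KN046 and 0.806, 0.974, 1.78 and 0.745 with the combination, and Serpina3k, a serine protease inhibitor of plasma, had 459, 792, 1063 and 824 and 0.403, 1.19, 0.916 and 0.559 CPM. Neither gene came close to overlapping between the groups. Of the metabolic enzymes, 19 of 20 were lower (median -9.13, or -8.84 with genes at 0 counts set to their bound). Otc, the urea cycle enzyme of mitochondria, had 4.81, 15.1, 14.4 and 11 CPM with KN046 and 0 counts with the combination, at least 297-fold lower against the floor of 3 counts. Tat, the tyrosine aminotransferase, fell from 65.7 to 489.5 to 0.101 to 0.270 CPM, with a log2 fold change from -10.39 without KN046 mouse 2 to -9.27 without KN046 mouse 3. Arg1 was the enzyme not called. It is also expressed by macrophages and had 231, 202, 369.8 and 273 CPM with KN046 and 105, 189, 119 and 252 with the combination, a log2FC of -0.70 ± 0.28 (SE, adjusted p = 0.114).

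Sequences upstream of these genes are shown because the lists moved together. Of the 18 secreted protein genes, 14 had a promoter in the RefSeq table (mouse build GRCm38.p6, a build older than that of the counts), and the 250 bases before the start held GTTAAT, a half-site known from promoters of liver genes, on either strand in 7 of them (50%), against 7.49% of all 27025 genes with a promoter. The 160 bases before the starts of Alb (chr5:90460710-90460869, plus strand) and Fga (chr3:83025993-83026152, plus strand) are given 5′ to 3′ on the gene's strand, with the half-site in capitals.
Alb: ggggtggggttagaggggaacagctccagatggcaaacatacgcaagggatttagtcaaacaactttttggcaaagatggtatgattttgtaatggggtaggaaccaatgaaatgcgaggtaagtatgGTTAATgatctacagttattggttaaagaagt
Fga: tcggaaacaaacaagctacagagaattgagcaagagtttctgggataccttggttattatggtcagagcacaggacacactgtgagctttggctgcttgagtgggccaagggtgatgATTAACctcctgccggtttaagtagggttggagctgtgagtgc
The Fga match lies on the opposite strand. A match is a description of the letters and not evidence of binding.

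The remaining functions of the hepatocyte fell alongside. Of the cytochrome P450 and bile acid genes, 17 of 18 were lower (median -8.82), and Cyp2e1, which oxidizes ethanol and other small molecules, had 103, 479.6, 283 and 181 CPM with KN046 and 0.503, 0.595, 0.539 and 0.233 with the combination. Cyp4a10 and Cyp4a14, fatty acid hydroxylases induced through PPARα, had 40.6, 12.5, 29.2 and 8.79 and 125, 17.5, 59.5 and 15.3 CPM with KN046 and 1 and 4 counts in all combination mice together. Of 15 hepatocyte transcription factors tested, 13 were lower (median -6.61, or -6.17 with the bounds). The nuclear receptors Nr1i2 (PXR) and Nr1i3 (CAR), which sense foreign compounds, had 0 counts with the combination and were at least 221-fold lower and at least 71.8-fold lower, and 12 of 15 apolipoproteins tested were lower (median -9.02, or -7.98 with the bounds). Apoa4 was at least 252-fold lower, and Apoe, which macrophages also make, fell less, from 1601, 3526, 2510.1 and 2318 to 604, 828, 909 and 518 CPM, a log2FC of -1.80 ± 0.26 (SE, adjusted p = 0.000354).

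Plasma proteins of defense and clotting were mostly lower. Of 16 acute-phase genes 14 were lower. Hp, haptoglobin, fell from 514 to 1382 to 2.37 to 8.57 CPM and Crp, C-reactive protein, from 8.51 to 31.2 CPM to 1 count in the 4 combination mice. Lcn2, which neutrophils and inflamed epithelia also make, had 90.4, 98.1, 284 and 84.4 CPM with KN046 and 0.856, 1.62, 0.323 and 20.4 with the combination, a log2FC of -4.56 ± 1.12 (SE, adjusted p = 0.0295) that was not past the threshold without KN046 mice 1, 2 and 3 or combination mouse 2 (adjusted p up to 0.0949) and ranged from -7.21 without combination mouse 4 to -3.95 without KN046 mouse 3. In complement, 16 of 24 tested genes were lower and 1 higher. The terminal component C8a fell from 18.6 to 66.4 to 0 to 0.0931 CPM, and the higher gene was C1qb, a macrophage-made chain of C1q, with 137 ± 36.3 CPM with KN046 and 204 ± 19.7 with the combination (SD, n = 4 each), a log2FC of 0.58 ± 0.18 (SE, adjusted p = 0.0488) that was lost without KN046 mice 1, 3 and 4 or combination mice 2, 3 and 4 (adjusted p up to 0.115). Among 28 coagulation and fibrinolysis genes 19 were lower and 1 higher. The higher gene was Plau, the urokinase activator of plasminogen, with 8.14, 18.7, 19.0 and 17.3 CPM with KN046 and 30.6, 42.5, 42.5 and 32.7 with the combination, a log2FC of 1.23 ± 0.24 (SE, adjusted p = 0.00455).

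Several ligands of the TGF-β superfamily and genes of fatty acid oxidation were lower as well, and the cells behind these falls were not tested. Of 21 tested genes of the BMP and hepcidin axis, which controls iron uptake through SMAD signaling in hepatocytes, 11 were lower and 0 higher (median -1.10). Hamp, which encodes hepcidin, had 4.65, 169, 26.5 and 68.5 CPM with KN046 and 0.101, 0.108, 0.485 and 0.0466 with the combination, and its log2 fold change of -8.50 ranged from -9.52 without combination mouse 3 to -7.45 without KN046 mouse 2. Bmp10 and Bmp5, ligands of this family, had 2.33, 3.28, 2.67 and 2.11 and 1.64, 2.27, 2.11 and 1.18 CPM with KN046 and 0 and 1 counts in the combination group, the former at least 68.1-fold lower. Of 13 activin and follistatin genes 3 were lower (23.1%, against 10.0% of all genes). The activin subunits Inhbc and Inhbe had 269 and 375 counts over the KN046 mice and 0 and 3 over the combination mice, and Fst, follistatin, which binds activins, fell from 3.44, 4.53, 3.39 and 2.36 to 1.06, 0.974, 0.162 and 0.559 CPM, a log2FC of -2.31 ± 0.47 (SE, adjusted p = 0.00610). Of 18 PPAR target and fatty acid oxidation genes 11 were lower and 0 higher (median -1.27), among them Fabp1, the fatty acid carrier of liver, with 25.7 to 45.4 CPM and 2 counts in the combination group. Plin5, a lipid droplet protein, and Ehhadh, a peroxisomal enzyme, had log2 fold changes of -6.47 and -5.62.

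Genes of the non-parenchymal cells of the liver were mostly lower. Of the 10 Kupffer cell genes 8 were lower (median -3.17), with a summed level of 82.8 to 484.8 CPM with KN046 and 14.3 to 31.8 with the combination. Clec4f (ENSMUSG00000014542, chromosome 6, 83621524 to 83633169), a lectin restricted to these liver-resident macrophages, had 12.3, 146, 58.3 and 47.6 CPM with KN046 and 0.101, 0.0541, 0 and 0.0931 with the combination, with a log2FC of -9.88 that ranged from -10.20 without KN046 mouse 1 to -9.10 without KN046 mouse 2. Vsig4, a complement receptor of resident macrophages, had 9.83, 43.6, 23.6 and 20 and 0.0503, 0.325, 0.269 and 0.0466 CPM. In both genes KN046 mouse 1 was the lowest of its group and still above all 4 combination mice. Cd5l and Cd163, which are shared with other tissue macrophages, had log2 fold changes of -5.03 ± 0.80 (SE, adjusted p = 0.00188) and -4.23 ± 0.51 (SE, adjusted p = 0.000126), and that of Cd5l ranged from -5.98 without combination mouse 4 to -4.45 without KN046 mouse 2. Marco, the scavenger receptor that splenic marginal zone macrophages also carry, had a log2FC of -3.31 ± 0.68 (SE, adjusted p = 0.00863) that ranged from -3.92 without combination mouse 4 to -2.93 without combination mouse 3.

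Of 11 sinusoidal genes tested 7 were lower and 0 higher. Lyve1, a hyaluronan receptor, had 41.7, 22.1, 34.8 and 25.7 CPM with KN046 and 0.151, 0.108, 0.269 and 0.0466 with the combination, a log2FC of -7.72 ± 0.38 (SE, adjusted p = 4.1e-08). Gata4, the factor that specifies this endothelium, fell from 2.38 to 6.90 CPM to 1 count in all combination mice, Oit3 from 7.20 to 14.5 to 0 to 0.302 CPM and Clec4g from 2.80 to 5.21 to 0 to 0.279 CPM. Stab2, a scavenger receptor that splenic sinuses also express, kept more of its level, with 36.4, 39.5, 38.9 and 26.4 CPM with KN046 and 20.4, 13.3, 9.11 and 12.1 with the combination, a log2FC of -1.36 ± 0.23 (SE, adjusted p = 0.00150). Its relative Stab1, also a macrophage gene, was not called, at 136 ± 50.9 and 109 ± 18.1 CPM (adjusted p = 0.363). Of the 14 stellate cell genes, 9 were lower and 1 higher (median -2.72), while the summed level overlapped, at 811.8 to 1418 CPM with KN046 and 926.4 to 940.7 with the combination. Reln had 11.2, 21.0, 37.9 and 15.7 CPM with KN046 and 0.0503, 0.0541, 0 and 0.512 with the combination, Lrat, which stores vitamin A as esters, had 249 counts over the KN046 mice and 3 over the combination mice, and Lhx2 was at least 32.9-fold lower. The higher gene was Pth1r, the parathyroid hormone receptor, which rose from 5.07, 7.23, 7.83 and 6.43 to 13.4, 14.2, 20.8 and 16.9 CPM, a log2FC of 1.30 ± 0.21 (SE, adjusted p = 0.00105).

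Among 20 endothelial and angiogenesis genes 11 were lower and 1 higher (median -0.79), a list not restricted to liver, and without combination mouse 3 the number lower was 7. Ptprb, the phosphatase of vascular endothelium, fell from 29.3, 43.9, 35.3 and 26.4 to 7.75, 7.03, 7.06 and 7.73 CPM, a log2FC of -2.19 ± 0.18 (SE, adjusted p = 2.96e-06). Robo4 and the tip cell gene Esm1 had log2 fold changes of -1.59 ± 0.21 (SE, adjusted p = 0.000181) and -1.5 ± 0.36 (SE, adjusted p = 0.0178), and Esm1 was not past the threshold without combination mouse 3 (adjusted p = 0.0587). Cldn5, a tight junction claudin, rose from 2.80, 1.74, 3.39 and 3.44 to 5.54, 7.95, 6.84 and 7.54 CPM, a log2FC of 1.29 ± 0.28 (SE, adjusted p = 0.00818), while Pecam1, the general marker, was not called, at 38.0 ± 9.11 CPM with KN046 and 28.8 ± 5.66 with the combination (adjusted p = 0.182). Of 17 epithelial and EMT genes 8 were lower and 0 higher. The keratins Krt8 and Krt18, which hepatocytes also make, had 48.1, 83.2, 61.5 and 75.4 and 46.1, 81.4, 55.2 and 61.5 CPM with KN046 and 0.101, 0.865, 0 and 0.0931 and 0.302, 0.811, 0.108 and 0.0931 with the combination. Cldn3, a claudin of bile duct and gut epithelium, was at least 229-fold lower, and its KN046 level rested on mouse 2, with 5.18, 19.3, 4.67 and 4.73 CPM in mice 1 to 4. Of 6 cholangiocyte genes tested 3 were lower, and 1 without KN046 mouse 4 or combination mouse 2 or 3.

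Of the splenic mesenchyme genes some rose and most did not. Of 11 tested, 5 were called higher (45.5%, against 3.78% of all genes), 1 was called lower and the other 5 were not called. The listed genes Barx1, Nkx3-2, Ccl21a, Ccl19 and Madcam1 were too low to be tested. Those called higher were the transcription factors Nkx2-3, Nkx2-5, Nr5a1 and Tlx1, which specify the stroma of the spleen, and Coch, which encodes cochlin. Nkx2-3 (ENSMUSG00000044220, chromosome 19, 43600764 to 43604331) had 0 counts in all KN046 mice and 1.51, 1.57, 1.78 and 2.47 CPM with the combination, at least 47.5-fold higher against the floor of 3 counts over the group, and Nkx2-5 was at least 21.6-fold higher. Nr5a1 had 1 count over the KN046 mice and 2.57, 2.49, 1.51 and 2.98 CPM in the combination mice, and Tlx1 had 3 counts and 1.26, 1.30, 1.19 and 1.54 CPM, a ratio of 34.1 (95% counting interval 11.4 to 168). Each of the 4 combination mice carried these factors. Coch was less even, with 8.16, 0.865, 0.916 and 5.91 CPM in combination mice 1 to 4 and 0 to 0.338 with KN046, a log2FC of 4.76 ± 0.96 (SE, adjusted p = 0.00615) that ranged from 4.14 without combination mouse 1 to 5.71 without KN046 mouse 2. The fall was in Clu, clusterin, which hepatocytes secrete too, from 298, 953, 558 and 382 to 91.5, 95.5, 81.7 and 149 CPM. The median log2 fold change of the list was 0.00. Its summed level was lower with the combination, at 366.0 to 473.7 CPM against 659.1 to 1174 with KN046. Clu was the highest gene in this sum, so the sum does not give the direction of the other members.

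Other splenic cells were less uniform. Of 10 splenic macrophage genes tested 1 was higher and 4 lower. Itgad, an integrin of red pulp macrophages, rose from 0.0529, 0.0482, 0 and 0.206 to 0.806, 0.757, 0.593 and 1.07 CPM, a log2FC of 3.28 ± 0.66 (SE, adjusted p = 0.00509) that ranged from 2.92 without KN046 mouse 3 to 4.31 without KN046 mouse 4, whereas Spic, the factor that specifies these cells, had 0.264, 3.57, 1.06 and 0.617 and 1.41, 0.595, 0.269 and 2.7 CPM and was not called (adjusted p = 0.921). The B cell genes Ms4a1, Cr2, Blk and Fcrla were too low to be tested. Of 8 B cell genes tested 1 was called. That gene was Spib, a factor of B cells and plasmacytoid dendritic cells, with 0.370, 3.04, 1.0 and 2.00 CPM with KN046 and 6.29, 5.52, 5.17 and 10.7 with the combination, a log2FC of 2.10 ± 0.51 (SE, adjusted p = 0.0171) lost without combination mouse 4 (adjusted p = 0.0559). Cd79a, a chain of the B cell receptor, had 6.85, 1.03, 0.431 and 20.8 CPM in combination mice 1 to 4 and 0.874 to 2.80 CPM with KN046, so that mice 1 and 4 were high and mice 2 and 3 within or below the KN046 range, and the gene was not called (adjusted p = 0.139). Jchain, which joins IgA and IgM chains, was the only called gene of 6 plasma cell genes tested, with 0.476, 0.627, 0.555 and 2.62 and 12, 8.17, 3.50 and 66.4 CPM, a log2FC of 4.39 ± 0.99 (SE, adjusted p = 0.0160) that ranged from 2.88 without combination mouse 4 to 5.33 without KN046 mouse 4 and was not past the threshold without KN046 mice 1 and 2 (adjusted p up to 0.109). Combination mice 1 and 4 thus held the highest levels of Coch, Cd79a and Jchain.

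T cell genes were higher with the combination. Of 17 genes of the T cell receptor complex and its co-receptors tested, 10 were called higher and 0 lower (58.8%, against 3.78% of all genes), with a median log2 fold change of 1.49, and the summed level was 48.2 to 114.3 CPM with the combination and 16.4 to 35.7 with KN046. Cd3d (ENSMUSG00000032094, chromosome 9, 44893083 to 44899173), a chain of the CD3 complex, had 0.529, 1.16, 0.278 and 0.771 CPM with KN046 and 3.62, 3.41, 2.80 and 6.33 with the combination, a log2FC of 2.54 ± 0.45 (SE, adjusted p = 0.00190). Cd8b1, the beta chain of the CD8 co-receptor, had 0.581, 0.965, 0.555 and 1.49 and 5.39, 3.14, 3.13 and 7.45 CPM, a log2FC of 2.40 ± 0.43 (SE, adjusted p = 0.00227). Cd8a, the alpha chain, had 3.81, 5.79, 2.22 and 3.55 and 15.0, 5.95, 7.92 and 13.4 CPM, a log2FC of 1.46 ± 0.35 (SE, adjusted p = 0.0173), and was not past the threshold without combination mouse 4 (adjusted p = 0.0556). In all of these genes the groups did not overlap, and combination mice 1 and 4 were above mice 2 and 3. Lat, the adaptor that relays receptor signals, had a log2FC of 2.12 ± 0.43 (SE, adjusted p = 0.00526). Cd4 (1.37, 4.97, 1.56 and 2.00 CPM with KN046 and 7.05, 3.57, 4.36 and 10.4 with the combination) and Cd3e (1.0, 1.16, 0.611 and 0.977 and 3.88, 0.974, 2.42 and 2.42 CPM) were not called, with adjusted p of 0.0716 and 0.0563. Ptprc, which encodes CD45 of all leukocytes, was not called either, at 21.1, 50.2, 23.3 and 29.9 and 60.3, 30.0, 40.4 and 57.7 CPM (log2 fold change 0.60, adjusted p = 0.182). With mice left out in turn, the number of genes of the list called higher ranged from 5 without combination mouse 4 and 6 without KN046 mouse 3 to 12. Spleen is itself rich in T cells, and the part of the splenic and hepatocyte RNA described above in these differences was not tested.

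Many cytotoxic effectors rose as well. Of 16 tested, 9 were higher and 0 lower (median 1.92), with summed levels of 85.7 to 142.6 CPM with the combination and 31.4 to 48.2 with KN046, and without combination mouse 3 the number was 6. The study lists 6 granzyme genes for its heatmap, which were chosen on these samples and are not independent evidence of direction. In all 6 the groups did not overlap, and 5 were called, which became 3 without KN046 mouse 3 or 4 or combination mouse 2, and 2 without combination mouse 3. Gzmb (ENSMUSG00000015437, chromosome 14, 56496295 to 56499717), the granzyme of killer lymphocytes that cleaves caspases, had 3.59, 3.57, 0.889 and 1.65 CPM with KN046 and 16.5, 6.54, 12.7 and 28.4 with the combination, a log2FC of 2.72 ± 0.50 (SE, adjusted p = 0.00361). Gzme had 0.529, 0.0965, 0.167 and 0.308 and 1.66, 0.703, 2.80 and 1.91 CPM, a log2FC of 2.66 ± 0.57 (SE, adjusted p = 0.00816). These 2 were past the threshold whichever mouse was left out. Gzmc (log2FC 1.88 ± 0.46 SE, adjusted p = 0.0188) was lost without combination mouse 3 (adjusted p = 0.0553) and ranged from 1.62 without KN046 mouse 2 to 2.48 without KN046 mouse 1. Gzmf (log2FC 2.04 ± 0.54 SE, adjusted p = 0.0267) was lost without KN046 mice 3 and 4 or combination mice 2 and 3 (adjusted p up to 0.0811) and ranged from 1.73 without KN046 mouse 3 to 2.7 without KN046 mouse 1. Gzmd (log2FC 2.39 ± 0.72 SE, adjusted p = 0.0494) was lost without KN046 mice 2, 3 and 4 or combination mice 1, 2, 3 and 4 (adjusted p up to 0.135) and ranged from 2.02 without KN046 mouse 4 to 3.73 without KN046 mouse 1, and Gzmg was just outside, with a log2FC of 2.46 ± 0.76 (SE, adjusted p = 0.0528) that ranged from 2.08 without KN046 mouse 2 to 3.87 without KN046 mouse 1. The KN046 mice were uneven in Gzmd, at 2.48, 0.193, 0.778 and 0.103 CPM, against 3.27, 4.06, 7.49 and 3.82 with the combination. Prf1, perforin, which was named after its values were seen, had 2.22, 2.56, 1.33 and 2.57 and 9.62, 5.25, 5.28 and 13.5 CPM, a log2FC of 1.95 ± 0.36 (SE, adjusted p = 0.00310). Serpinb9, the inhibitor with which cells shield themselves from granzyme B, had 14.2, 20.7, 14.8 and 16.2 and 35.1, 33.7, 37.2 and 46.3 CPM, a log2FC of 1.21 ± 0.16 (SE, adjusted p = 0.000232). Ifng itself had 2 counts over the KN046 mice and 19 over the combination mice, most of them in mouse 1 (0.806, 0.0541, 0.0539 and 0.0466 CPM), and was too low to be tested.

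**Figure D4:**
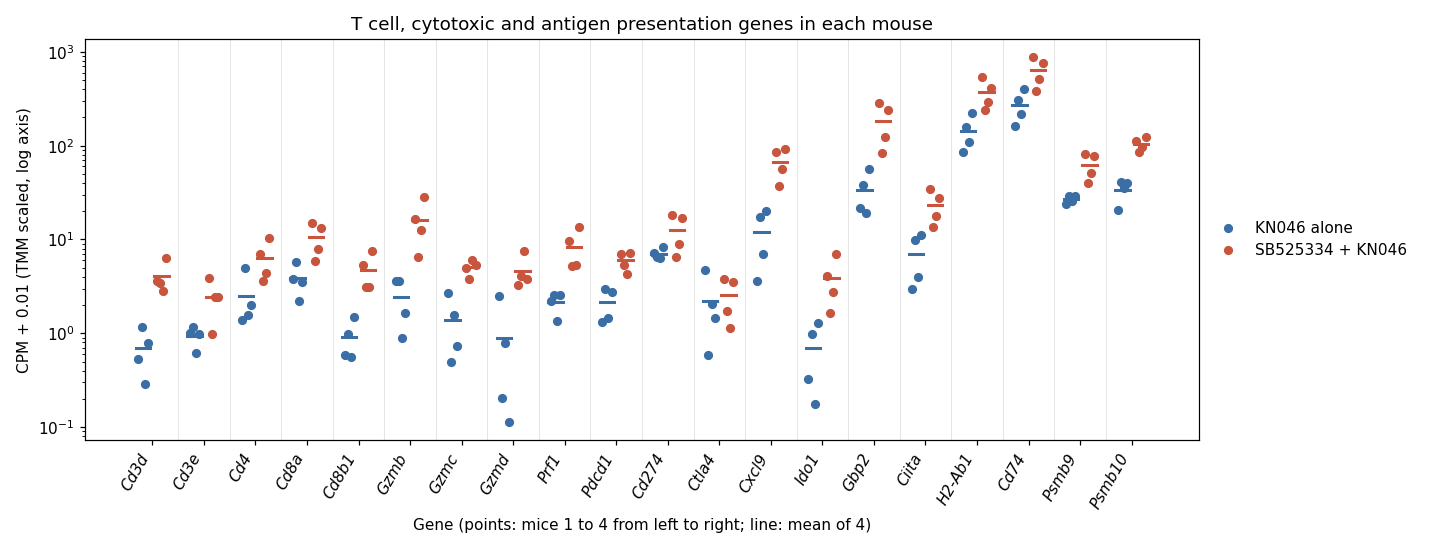
CPM plus 0.01 (log axis) of 20 T cell, cytotoxic, checkpoint and antigen presentation genes in the 4 KN046 mice (blue) and the 4 combination mice (red), with points for mice 1 to 4 from left to right and a line at the mean. Most genes separate the groups, while Cd3e, Cd4, Cd274, Ctla4 and Cd74 overlap, and combination mouse 2 is often the lowest of its group.

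Part of the interferon-γ response and antigen presentation genes were higher as well. Of 20 interferon-γ response genes 10 were called higher and 0 lower (median 1.55), with summed levels of 536.4 to 1580 CPM with the combination and 170.4 to 496.0 with KN046. The number called higher was 6 without KN046 mouse 1 or combination mouse 4 and 14 without combination mouse 2. Cxcl9 (ENSMUSG00000029417, chromosome 5, 92469206 to 92475945), the chemokine that draws CXCR3+ T cells, had 3.59, 17.2, 7.05 and 20.3 CPM with KN046 and 84.6, 36.7, 56.6 and 92.0 with the combination, a log2FC of 2.48 ± 0.49 (SE, adjusted p = 0.00684). Gbp2, a GTPase of cell-autonomous defense, had 21.6, 37.8, 19.2 and 56.3 and 283, 83.1, 123 and 242 CPM, a log2FC of 2.44 ± 0.44 (SE, adjusted p = 0.00399). Ido1, which degrades tryptophan, had 0.317, 0.965, 0.167 and 1.29 and 4.03, 1.62, 2.75 and 6.94 CPM, a log2FC of 2.47 ± 0.60 (SE, adjusted p = 0.0179), and was lost without combination mouse 4 (adjusted p = 0.0630). In each of these genes KN046 mice 2 and 4 were above mice 1 and 3, and combination mouse 2 was the lowest of its group. Type I interferon response genes were called higher about as often as all genes. Of 18 tested 1 was higher (5.56%, against 3.78% of all genes) and 0 lower, with a median of -0.06. Summed levels overlapped at 324.1 to 524.4 CPM with the combination and 231.3 to 576.8 with KN046. The called gene was Bst2, tetherin, with 78.4, 112, 100.1 and 107.6 and 156, 137, 129 and 165 CPM, a log2FC of 0.56 ± 0.14 (SE, adjusted p = 0.0180) lost without combination mouse 4 (adjusted p = 0.0660).

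The promoters of the 2 interferon lists are shown because both lists hold the same letters. The 250 bases before the start held GAAANNGAAA, the core of the interferon-stimulated response element, on either strand in 9 of the 12 interferon-γ response genes with a promoter in the table (75%) and in 7 of 14 type I genes (50%), against 3.46% of all genes. The 160 bases before the starts of Gbp2 (chr3:142620503-142620662, plus strand) and Bst2 (chr8:71537473-71537632, minus strand) of GRCm38.p6 follow, 5′ to 3′ on the gene's strand and with the matches in capitals.
Gbp2: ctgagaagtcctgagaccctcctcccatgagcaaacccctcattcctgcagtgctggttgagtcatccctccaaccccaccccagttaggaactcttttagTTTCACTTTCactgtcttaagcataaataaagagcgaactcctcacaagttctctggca
Bst2: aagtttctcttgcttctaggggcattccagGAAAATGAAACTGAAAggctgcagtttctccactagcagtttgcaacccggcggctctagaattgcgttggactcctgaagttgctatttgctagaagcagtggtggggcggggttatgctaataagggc
The Gbp2 match lies on the opposite strand, and the capitals of Bst2 hold 2 overlapping matches.

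Of 10 MHC class II genes tested 7 were higher and 0 lower (median 1.32), with summed levels of 1391 to 2800 CPM with the combination and 609.2 to 1330 with KN046. The sums of combination mice 1 and 4 (2800 and 2493 CPM) were above those of mice 2 and 3 (1391 and 1669 CPM), as were those of the B cell list, at 37.4 and 90.04 against 10.9 and 10.1 CPM, with 7.66 to 26.1 CPM with KN046. The part of B cells in the class II values was not tested. Ciita, the factor that switches these genes on, had 2.96, 9.89, 3.94 and 11.3 CPM with KN046 and 34.4, 13.6, 18.0 and 27.5 with the combination, a log2FC of 1.73 ± 0.43 (SE, adjusted p = 0.0218). H2-Ab1 and H2-Aa, the chains of I-A, had log2 fold changes of 1.35 ± 0.32 (SE, adjusted p = 0.0161) and 1.33 ± 0.31 (SE, adjusted p = 0.0163). Cd74, the invariant chain, had 162, 305, 220.1 and 404 and 879, 381, 511 and 768 CPM, a log2FC of 1.22 ± 0.31 (SE, adjusted p = 0.0249), and was lost without KN046 mouse 3 or combination mice 1 and 4 (adjusted p up to 0.0584). Of 15 MHC class I genes 6 were higher and 0 lower (median 0.49). These were led by the immunoproteasome subunits Psmb10, with 20.6, 40.7, 35.2 and 39.8 and 113, 85.5, 95.7 and 123 CPM and a log2FC of 1.62 ± 0.20 (SE, adjusted p = 0.000132), and Psmb9 (1.22), and by the peptide loader Tapbp (log2FC 0.91 ± 0.20 SE, adjusted p = 0.00844). H2-D1, a class I heavy chain, was not called, at 2309 ± 394 CPM with KN046 and 2990.4 ± 392 with the combination (log2 fold change 0.37, adjusted p = 0.171).

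Among 31 chemokine and receptor genes tested 6 were higher and 2 lower. Cxcr6, the receptor of tissue-resident T cells, rose from 0.687, 1.64, 0.167 and 0.411 to 7.65, 3.19, 4.47 and 3.59 CPM, a log2FC of 2.67 ± 0.56 (SE, adjusted p = 0.00682) that ranged from 2.35 without combination mouse 1 to 3.48 without KN046 mouse 2, and Ccl8, a monocyte attractant, from 2.27, 3.71, 1.61 and 1.75 to 6.14, 4.65, 6.03 and 10.3 CPM, a log2FC of 1.53 ± 0.35 (SE, adjusted p = 0.0118). Ccl2 was not called, at 21.2, 104, 29.7 and 158 and 154, 199, 159 and 140.1 CPM (adjusted p = 0.205). KN046 mouse 4 reached the combination range in Ccl2 and mice 1 to 3 did not. Of 23 interleukin and receptor genes tested 5 were higher and 0 lower. None was called without KN046 mouse 3 or combination mouse 4, 2 or 3 were called without any of KN046 mice 1 and 4 and combination mice 1, 2 and 3, and 8 without KN046 mouse 2. Il1b had 0.740, 7.86, 2.39 and 6.48 and 28, 11.5, 11.2 and 18.7 CPM, a log2FC of 1.98 ± 0.57 (SE, adjusted p = 0.0428) lost without KN046 mouse 3 or combination mice 1, 2, 3 and 4 (adjusted p up to 0.0897), and Il21r had a log2FC of 1.67 ± 0.47 (SE, adjusted p = 0.0358) lost without KN046 mice 3 and 4 or combination mice 1, 2, 3 and 4 (adjusted p up to 0.0899). Of the 5 interleukin signaling genes of the study, 4 were tested and Il7r was called, with 3.33, 4.0, 3.11 and 5.24 and 11.2, 5.84, 6.03 and 12 CPM, a log2FC of 1.16 ± 0.31 (SE, adjusted p = 0.0261) lost without KN046 mice 1 and 3 or combination mouse 4 (adjusted p up to 0.0924). Il2rg, the common gamma chain, had 14.3, 20.5, 20.3 and 19.6 and 29.2, 22.9, 24.6 and 31.3 CPM without overlap and an adjusted p of 0.0501, Pik3r2 and H3c10 had log2 fold changes of 0.25 and 0.69 (adjusted p = 0.228 and 0.315), and Il9r, with 14 and 54 counts in the groups, was too low to be tested. Of the 7 T cell activation genes of the study 3 were called, Cd8a, Cd8b1 and H2-DMb1, the last with a log2FC of 0.77 ± 0.15 (SE, adjusted p = 0.00419), whereas H2-DMb2, Mif, Cd81 and Lgals3 had log2 fold changes of 1.42, 0.26, 0.34 and 0.13 and adjusted p of 0.0646, 0.422, 0.0731 and 0.756.

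The drug targets themselves were not called. Cd274, which encodes PD-L1, had 7.19, 6.46, 6.33 and 8.28 CPM with KN046 and 18.4, 6.49, 9.05 and 16.9 with the combination, a log2FC of 0.85 ± 0.31 (SE, adjusted p = 0.0868), with combination mice 1, 3 and 4 above the KN046 range and mouse 2 within it. Ctla4 had 4.76, 0.579, 2.05 and 1.44 and 3.78, 1.73, 1.13 and 3.54 CPM (adjusted p = 0.832) and Tgfbr1, the receptor that SB525334 inhibits, 71.5, 81.2, 62.6 and 65.4 and 98.3, 67.1, 97.3 and 64.5 CPM (adjusted p = 0.367). In all 3 the groups overlapped. Of 14 exhaustion and checkpoint genes 2 were higher (14.3%, against 3.78% of all genes) and 0 lower. Pdcd1, which encodes PD-1, had 1.32, 2.94, 1.44 and 2.78 CPM with KN046 and 7.05, 5.35, 4.31 and 7.17 with the combination, a log2FC of 1.49 ± 0.34 (SE, adjusted p = 0.0115), and Vsir, which encodes VISTA, had a log2FC of 0.48 ± 0.12 (SE, adjusted p = 0.0226) lost without KN046 mouse 3 or combination mouse 4 (adjusted p up to 0.0925). Of 9 regulatory T cell genes tested 2 were higher (22.2%, against 3.78% of all genes). Of these, Tnfrsf9, the co-stimulatory receptor 4-1BB, had a log2FC of 0.95 ± 0.26 (SE, adjusted p = 0.0287) and was lost without combination mice 2 and 4 (adjusted p up to 0.102). Of 6 NK cell genes tested 1 was higher (16.7%, against 3.78% of all genes) and 0 lower. None was called higher without KN046 mouse 1 or 3 or combination mouse 3 or 4.

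Calls among myeloid genes differed by list. Of 18 genes of tumor-associated macrophages 4 were higher (22.2%, against 3.78% of all genes) and 2 lower (11.1%, against 10.0%). The number higher was 2 without KN046 mouse 3 or 4 or combination mouse 2 or 4 and 7 without KN046 mouse 2. The summed level was 2002 to 2448 CPM with the combination and 2860 to 5224 with KN046. Apoe was the highest gene in this sum, so the sum does not give the direction of the other genes. Of the 18 genes 11 had a log2 fold change above 0 and 7 below. Ms4a7 had 5.60, 16.6, 6.66 and 9.20 and 14.6, 32.1, 27.4 and 34.1 CPM, a log2FC of 1.5 ± 0.35 (SE, adjusted p = 0.0152), and Trem2, a lipid receptor of macrophages, 19.8, 19.6, 16.8 and 18.5 and 24.7, 36.4, 30.3 and 33.1 CPM, a log2FC of 0.74 ± 0.15 (SE, adjusted p = 0.00536). Among 11 dendritic cell genes tested 1 was higher (9.09%, against 3.78% of all genes). It was Irf8, the factor of cDC1 and monocyte fate, with a log2FC of 0.78 ± 0.19 (SE, adjusted p = 0.0162) lost without combination mouse 4 (adjusted p = 0.0590). Of 13 neutrophil genes tested 0 were higher and 1, Lcn2, lower (7.69%, against 10.0% of all genes). S100a8, an alarmin of neutrophils, was high in combination mouse 4 alone (1.31, 3.89, 0.323 and 46.7 CPM in mice 1 to 4, against 1.39 to 3.61 with KN046) and was not called (adjusted p = 0.168).

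Fibroblast genes differed by list. The 6 iCAF genes of the study (iCAFs are fibroblasts with a secretory, inflammatory profile) all fell, 6 of 6 without overlap and in each fit that left out a mouse, with a median log2 fold change of -2.61. The list was chosen on these samples and is not independent evidence of its direction. C3 and C4b, complement components that hepatocytes secrete in bulk, had 594, 1973, 1656 and 1122 and 133, 421, 302 and 227 CPM with KN046 and 157, 85.2, 109 and 167 and 65.3, 21.0, 29.2 and 53.2 with the combination. Cxcl12 (ENSMUSG00000061353, chromosome 6, 117144945 to 117158328), the chemokine that binds CXCR4 and that sinusoidal endothelium also makes, had 34.6, 42.4, 54.5 and 35.9 and 7.80, 5.52, 6.25 and 9.22 CPM, a log2FC of -2.54 ± 0.21 (SE, adjusted p = 2.8e-06). Col14a1, a collagen on the surface of fibrils, had 38.4, 57.4, 92.5 and 56.8 and 12.6, 7.84, 14.5 and 15.5 CPM, a log2FC of -2.28 ± 0.28 (SE, adjusted p = 0.000123). Efemp1, a fibulin, had 2.33, 2.65, 2.50 and 1.29 and 0.252, 0.216, 0 and 0.0466 CPM, and Plpp3, a lipid phosphatase, 40.8, 41.4, 43.2 and 50.8 and 19.5, 18.3, 22.6 and 19.9 CPM, with log2 fold changes of -4.03 and -1.13. Summed over the list, the level was 842.7 to 2537 CPM with KN046 and 138.1 to 265.0 with the combination. C3 was the highest gene in this sum, so the sum does not give the size of the fall in the other members. Hepatocyte list genes moved with these falls, and their part in them was not tested.

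Of the 4 myCAF genes of the study (myCAFs are contractile, matrix-forming fibroblasts), 2 fell. Cxcl14, a chemokine, had 9.04, 20.5, 26.9 and 16.9 CPM with KN046 and 4.08, 5.63, 6.36 and 8.47 with the combination, a log2FC of -1.58 ± 0.32 (SE, adjusted p = 0.00570). Cthrc1, a secreted protein of matrix-forming fibroblasts, had 0.740, 0.965, 2.39 and 2.26 and 0, 0.541, 0.162 and 0.372 CPM, a log2FC of -2.54 ± 0.70 (SE, adjusted p = 0.0323), and was lost without KN046 mice 3 and 4 or combination mice 3 and 4 (adjusted p up to 0.0982). Acta2, which encodes α-SMA, had 18.4, 47.0, 45.4 and 64.0 and 35.1, 25.0, 17.0 and 36.8 CPM, a log2FC of -0.62 ± 0.34 (SE, adjusted p = 0.237), and Sparcl1 had 41.7, 11.8, 26.7 and 25.8 and 23.5, 22.6, 25.0 and 21.1 CPM (adjusted p = 0.665), so that the groups overlapped in both. In a wider list of 15 myCAF and contractile genes tested 2 were higher and 0 lower. Among them was Thbs2, with 9.46, 6.46, 8.61 and 7.20 and 15.5, 14.8, 17.9 and 15.0 CPM, a log2FC of 0.99 ± 0.18 (SE, adjusted p = 0.00281).

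Few genes that define fibroblasts in general were called. Of 14 pan-fibroblast genes 1 was higher and 1 lower (7.14% each, against 3.78% and 10.0% of all genes), with a median of 0.02. Fap, the target of the imaging tracer, had 1.53, 0.531, 0.778 and 0.874 CPM with KN046 and 2.06, 1.78, 2.37 and 0.698 with the combination, a log2FC of 0.89 ± 0.46 (SE, adjusted p = 0.209). Pdgfra had 128, 92.2, 88.1 and 115 and 118, 86.5, 116 and 92.9 CPM (adjusted p = 0.893) and Postn, periostin, 31.5, 32.6, 50.4 and 61.0 and 24.3, 22.1, 33.5 and 10.5 CPM, a log2FC of -0.96 ± 0.32 (SE, adjusted p = 0.0704). None of these 3 passed the threshold. Col1a1 and Col3a1, the chains of types I and III collagen, had log2 fold changes of -0.65 ± 0.31 (SE, adjusted p = 0.175) and 0.61 ± 0.23 (SE, adjusted p = 0.0973), of opposite sign. The gene called higher was Thy1, which T cells also express, with 7.40, 12.5, 11.4 and 13.8 and 25.8, 17.3, 20.7 and 37.4 CPM, a log2FC of 1.17 ± 0.26 (SE, adjusted p = 0.00979). The gene called lower was Lum, lumican, with 23.4, 18.8, 35.4 and 27.5 and 2.92, 11.8, 8.30 and 1.21 CPM, a log2FC of -2.12 ± 0.54 (SE, adjusted p = 0.0261) lost without KN046 mice 1 and 3 or combination mouse 1 (adjusted p up to 0.0761). Tagln and Il6 had 12 and 35 counts over the KN046 mice and 6 and 26 over the combination mice, too low to be tested. Of 14 wider iCAF genes tested 2 were higher and 2 lower (14.3% each, against 3.78% and 10.0% of all genes). Igf1, which hepatocytes make as well, fell from 28.3, 67.3, 58.9 and 49.5 to 4.13, 3.03, 2.42 and 6.19 CPM, a log2FC of -3.68 ± 0.33 (SE, adjusted p = 1.01e-05), and Ly6c1 rose from 222, 173, 153 and 203 to 369, 323, 329 and 437 CPM, a log2FC of 0.95 ± 0.15 (SE, adjusted p = 0.000772).

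**Figure D5:**
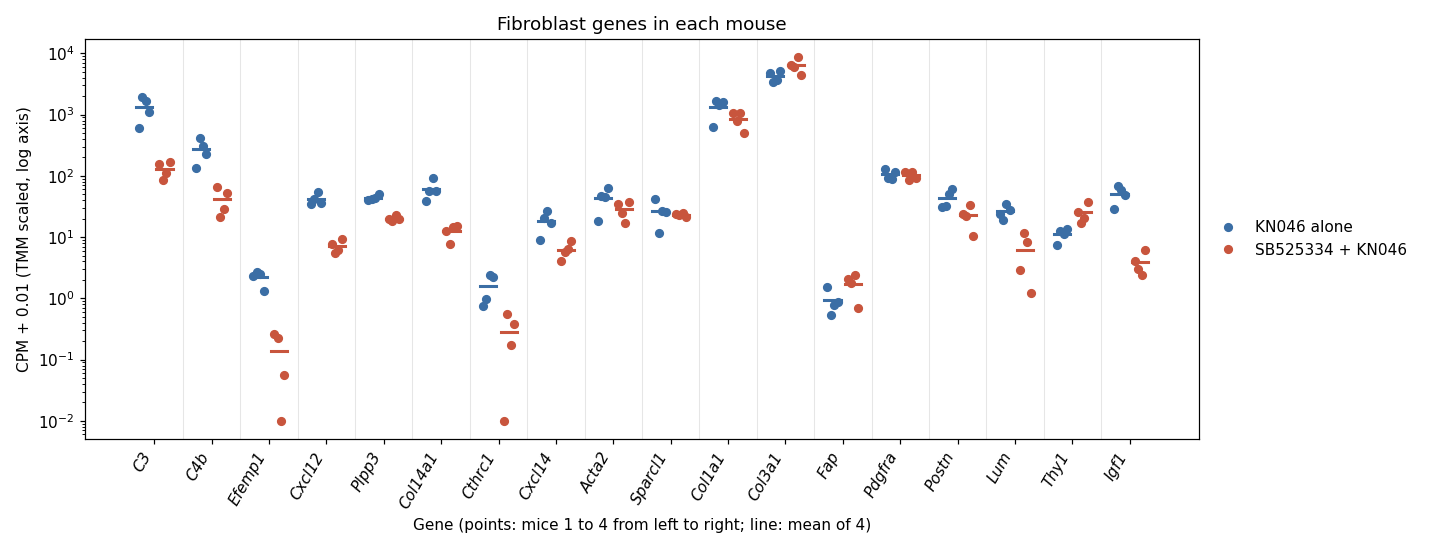
CPM plus 0.01 (log axis) of 18 fibroblast genes in the 4 KN046 mice (blue) and the 4 combination mice (red), with points for mice 1 to 4 from left to right and a line at the mean. The 6 iCAF genes at the left and Cthrc1, Cxcl14, Lum and Igf1 are lower in all combination mice, and Acta2, Sparcl1, Fap and Pdgfra overlap.

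Matrix genes changed in a minority of cases, though in part of the lists more often than all genes. Of 20 collagens tested 4 were lower (20%, against 10.0% of all genes) and 0 higher (median -0.27). The number lower became 2 without KN046 mouse 3 or 4 or combination mouse 2, 3 or 4. Col15a1, a basement membrane collagen, fell from 55.7, 59.1, 97.1 and 109 to 27.0, 19.7, 36.6 and 37.4 CPM, a log2FC of -1.41 ± 0.26 (SE, adjusted p = 0.00325). Among 33 proteoglycan, elastic fiber and matricellular genes 3 were higher (9.09%, against 3.78% of all genes) and 7 lower (21.2%, against 10.0%). Without KN046 mouse 3 these were 1 and 3, without combination mouse 3 they were 1 and 4, without combination mouse 2 they were 2 and 3, and without KN046 mouse 4 or combination mouse 4 they were 2 and 4. Prelp, a leucine-rich proteoglycan, rose (log2FC 0.82 ± 0.22 SE, adjusted p = 0.0262) and was lost without KN046 mice 3 and 4 or combination mice 3 and 4 (adjusted p up to 0.0677), and Fn1, fibronectin, was not called, at 1423 ± 189.9 and 1041 ± 199 CPM (adjusted p = 0.101). Ccn4, a matricellular protein, rose from 4.49, 13.2, 8.44 and 16.4 to 25.1, 20.3, 28.1 and 21.9 CPM, a log2FC of 1.16 ± 0.32 (SE, adjusted p = 0.0332) lost without KN046 mouse 3 or combination mice 1, 2, 3 and 4 (adjusted p up to 0.0811). Of 19 metalloproteinases and inhibitors 2 were higher (10.5%, against 3.78% of all genes) and 0 lower (against 10.0%). The rises were led by Mmp3, stromelysin 1, with 1.74, 1.59, 1.0 and 1.65 and 4.58, 4.27, 6.57 and 12.8 CPM, a log2FC of 2.23 ± 0.39 (SE, adjusted p = 0.00188).

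TGF-β ligands, receptors and SMADs were called about as often as all genes tested. Of 25 tested 1 was higher (4%, against 3.78% of all genes) and 3 lower (12%, against 10.0%), with a median of -0.28. The number lower was 1 without combination mouse 2 or 3 and 6 without KN046 mouse 2. Tgfb1, the main ligand in tumors, had 103, 99.4, 124 and 117 CPM with KN046 and 134, 143, 143 and 151 with the combination, a log2FC of 0.37 ± 0.11 (SE, adjusted p = 0.0442) lost without KN046 mice 1, 2 and 4 or combination mice 2, 3 and 4 (adjusted p up to 0.133). Lrrc32 (GARP), which anchors latent TGF-β on cells, fell from 25.1, 15.3, 26.4 and 19.3 to 12.5, 8.22, 11.9 and 12.5 CPM, a log2FC of -0.93 ± 0.21 (SE, adjusted p = 0.0115). Eng, endoglin, the co-receptor of endothelium, fell from 27.9, 66.2, 42.8 and 39.2 to 24.1, 22.9, 23.5 and 27.0 CPM, a log2FC of -0.85 ± 0.22 (SE, adjusted p = 0.0224) lost without combination mice 2 and 3 (adjusted p up to 0.0628), and Thbs1, which activates the latent ligand, had a log2FC of -0.92 ± 0.27 (SE, adjusted p = 0.0419) lost without KN046 mice 3 and 4 or combination mice 2, 3 and 4 (adjusted p up to 0.112). Ltbp4, a latent TGF-β binding protein, was not called, at 1417 ± 321 and 1033 ± 88.5 CPM (adjusted p = 0.104). Of 23 TGF-β response genes tested 1 was higher (4.35%, against 3.78%) and 4 lower (17.4%, against 10.0%), with a median of -0.29. Without combination mouse 2, the number lower was 2. Ccn2, a matricellular target also known as CTGF, had 17.3, 31.3, 25.3 and 42.9 and 18.0, 12.4, 5.06 and 7.31 CPM, a log2FC of -1.45 ± 0.38 (SE, adjusted p = 0.0273) lost without KN046 mice 2 and 4 or combination mice 2, 3 and 4 (adjusted p up to 0.0658), Lox, the collagen cross-linking enzyme, 32.8, 12.8, 39.7 and 42.8 and 14.9, 10.7, 13.3 and 12.5 CPM, a log2FC of -1.32 ± 0.31 (SE, adjusted p = 0.0148) lost without combination mouse 2 (adjusted p = 0.0558), and Id3, an inhibitor of helix-loop-helix factors that BMPs also induce, 13.8, 38.9, 20.8 and 31.0 and 7.75, 14.2, 6.25 and 8.66 CPM, a log2FC of -1.51 ± 0.33 (SE, adjusted p = 0.0107). In Ccn2, Lox and Id3 the groups overlapped by 1 or more mice.

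Calls among proliferation, metabolic and stress genes were few in number, where 3.78% of all genes were higher and 10.0% lower. Of 26 cell cycle and replication genes 0 were higher and 2 lower (median 0.01). Mki67, which encodes Ki-67, had 469.6, 496, 363 and 279 CPM with KN046 and 259.5, 96.1, 61.4 and 141 with the combination, a log2FC of -1.53 ± 0.38 (SE, adjusted p = 0.0229) lost without KN046 mice 1 and 2 or combination mouse 2 (adjusted p up to 0.0889). Of 22 glycolysis and hypoxia genes 1 was called, Slc16a3, the lactate exporter MCT4, which had a log2FC of 0.65 ± 0.17 (SE, adjusted p = 0.0237) and was lost without combination mice 2 and 4 (adjusted p up to 0.0762). Of 23 cholesterol and fatty acid synthesis genes 2 were lower, among them Scd1, the stearoyl-CoA desaturase (log2FC -0.67 ± 0.15 SE, adjusted p = 0.0106). Of 15 unfolded protein and stress genes tested 1 was higher, the chaperone cofactor Sdf2l1 (log2FC 0.76 ± 0.16 SE, adjusted p = 0.00622), and of 13 immediate early genes 0 were higher and 3 lower, which became 0 without combination mouse 3 and 1 without KN046 mouse 1, 3 or 4 or combination mouse 2 or 4. Markers of other tissues that the sample could hold were few. Of the mesothelial genes 5 were tested and 1 was lower, and Msln, mesothelin, had 288, 181, 240.3 and 109 and 172, 166, 119 and 163 CPM and was not called (adjusted p = 0.292). Adipocyte genes were lower in 2 of 3 tested and erythroid genes in 1 of 9, and none of 1 pancreatic acinar, 8 skeletal muscle, 5 platelet and 2 mast cell and eosinophil genes tested was called.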

How the data were processed

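Raw counts per gene of 21959 listed genes were analysed for 8 mice. Per the labels and the study's methods, the authors used Cutadapt 2.7 for trimming and HISAT2 2.2.1 for alignment to the mouse build GRCm39, and the deposited counts came from HTSeq 2.0.4. Settings for strand and for reads with several alignments are not given in the sources used here, so overlapping genes, antisense genes and close paralogs such as the granzymes are uncertain. The authors' DESeq2-normalized tables were not used.

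The test was edgeR's robust quasi-likelihood fit (version 4.0.16, R 4.3.3). Genes passed filterByExpr at a minimum of 10 counts, libraries were scaled by TMM, and p-values were adjusted over 13421 genes by Benjamini-Hochberg, with a threshold of 0.05. CPM were computed on library sizes summed over the tested genes and scaled by TMM. Raw totals before this were 18368994 to 20921926 counts. On the CPM scale, 3 counts over a group equal 0.0389 CPM with KN046 and 0.0383 with the combination. Genes with 0 counts in a group were given as a bound against these 3 counts, and those with 1 to 3 as a ratio with an exact 95% interval. Floors and intervals cover counting error only. The alternatives were DESeq2 1.42.0, other scalings and filters, all 16 mice, a replicate block, the study's thresholds and each mouse left out. Counts were also simulated with the same coefficient of variation (22.5%) for every gene and with rises and falls in equal number. In these, edgeR called 196 of 196 genes changed 4-fold and 3 of 13140 unchanged genes. The real genes differed in spread and were called lower more often than higher, so this recovery cannot be carried over to the real calls.

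The members and the 60 gene lists (873 genes, 863 matched) were chosen with earlier results of these data known. Named genes were those the study plotted, stained or targeted, the gene of each list with the highest CPM and its 3 largest called rises and falls, the 10 largest non-overlapping rises and falls, and defining markers of cell types. Prf1 was named after its values were seen, and a few genes that the rule names are not reported here. Gene positions are from GENCODE M39, and promoters from RefSeq.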

Additional observations from a re-analysis of the deposited data

Results flagged for a closer look

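In 302 groups of 4 mice over the named genes, 15 had a mouse far from the other 3, about the 1 in 20 that chance gives. Combination mouse 4 was the highest of its group in 5 of them, with Lcn2 at 20.4 CPM (next highest 1.62), Jchain at 66.4 (12), S100a8 at 46.7 (3.89), Reln at 0.512 (0.0541) and Nkx2-5 at 1.44 (0.700). Combination mouse 1 held Ifng at 0.806 CPM (next 0.0541), mouse 2 Krt8 at 0.865 CPM (next 0.101) and mouse 3 Hamp at 0.485 CPM (next 0.108). Lrrc32 was lowest in combination mouse 2, at 8.22 CPM (next 11.9). With KN046, mouse 3 was highest in Lcn2 at 283.7 CPM (next 98.1) and lowest in Bcl11b at 0.0555 CPM (next 0.241), and mouse 1 was lowest in Plau at 8.14 CPM (next 17.3) and in Il2rg at 14.3 CPM (next 19.6). Cldn3 reached 19.3 CPM in KN046 mouse 2 (next 5.18) and Jchain 2.62 CPM in KN046 mouse 4 (next 0.627).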

How the results depend on the processing

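The 507 higher and 1345 lower genes became 956 and 1715 with DESeq2, 1371 and 2025 when all 16 mice shared 1 fit, and 273 and 1149 by the study's thresholds. Under these, the other scalings, the filters and the block, 0 genes called in both fits changed direction. With mice left out in turn, the counts ranged from 184 to 976 higher and from 1025 to 1824 lower. Of 134 named genes called, 105 were past the threshold in all 8 such fits. Some genes that were not called changed sign when a mouse was left out. Their log2FC ranged from -0.85 to 0.99 for Spic, from -0.058 to 0.34 for Lgals3, from -0.086 to 0.93 for Ctla4, from -0.19 to 3.05 for S100a8, from -0.42 to 0.12 for Sparcl1 and from -0.11 to 0.085 for Pdgfra. The replicate numbers did not pair the mice (correlation of same-numbered deviations -0.275 to 0.0539, and 1 of 8 mice correlated best with its own number). With the replicate number as a block there were 612 higher and 1422 lower genes, and Spic had a log2FC of 0.015. The cause of these changes was not tested. Depth limits what can be said of genes near 0: Tagln, Il6, Ifng and Il9r were not tested, nor were the splenic and B cell genes named above as too low.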
